A study of Mus musculus with 6 samples.

Results

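The inducible heat shock chaperones examined here are 10 genes, of 17030 in the deposited table, that were taken by their gene symbols: Hspa1a, Hspa1b, Hspa1l, Hsph1, Hsp90aa1, Dnajb1, Hspb1, Hspa8, Hspd1 and Hspe1. All 10 were found. They were selected on the measured difference of the HSP70 genes between the genotypes in these same libraries, so their differences are given as a description, with no test. RNA came from the mononuclear cells of skeletal muscle. All 6 mice were male, of the strain C57BL/B6, and carried an LLC tumour, the Lewis lung carcinoma that is used as a cachexia model. In 3 mice, of the genotype Pax7 Cre ErT x IKKbfl/fl and called Pax7-CreERT here, Cre under the control of the satellite cell gene Pax7 was present to delete floxed IKKb, a kinase that activates NF-kB. The other 3 mice, the controls, were IKKbfl/fl with no Cre. Every mouse, controls included, carried the floxed alleles and the tumour and was given tamoxifen on days 10 to 14 after tumour cell injection. No group carried Cre without the floxed alleles, so Cre itself and the deletion cannot be told apart. The labels give no age, and do not say that any mice were pooled. Ikbkb, the floxed gene, stood at 51.4, 48.4 and 52.7 CPM (reads per 1000000 reads assigned to genes) in Pax7-CreERT replicates 1 to 3, and at 51.3, 57.4 and 48.8 CPM in control replicates 1 to 3, so its total over all cells checks no deletion in satellite cells.

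Control replicate 3 stood apart from the other libraries. Haemoglobin genes took 12.6% of its CPM, against 1.84% to 4.83% in the 3 Pax7-CreERT libraries and 2.57% and 4.47% in the other controls. Its depth was also the lowest, an estimated 4054000 reads where the others held 4913000 to 13348000. For genes outside the chaperone members, the values without it were computed after the data had been seen.

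Heat shock chaperones bind unfolded or partly folded proteins, and most use cycles of ATP to refold them or hand them on. HSP70 proteins do the central step, HSP40 (DNAJ) proteins bring them clients and trigger their ATPase, HSP110 proteins exchange their nucleotide, HSP90 completes the folding of kinases and receptors, and small HSPs hold aggregating proteins. HSF1, the main transcription factor of the response, is released from chaperones when unfolded proteins accumulate and binds heat shock elements, inverted repeats of the unit GAA in alternating orientation, in the promoters of these genes. In muscle the response is known to follow heat, exercise, injury and the enzymatic dissociation of tissue into cells.

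The promoters of the HSP70 genes and of other members are shown, both for genes that were far higher in the Pax7-CreERT libraries and for genes that were not. The sequences are those of RefSeq on GRCm38.p6, which held 8 of the 10 members; Hsp90aa1 and Hspa8 had no entry. Each runs 5′ to 3′ on the strand of its gene, from 150 bases before the start site to the base before it. Capitals mark heat shock element letters, GAANNTTC or TTCNNGAA, each of which reads the same on both strands. Only 30 bases around these letters are given for Hspe1 and Hsph1, whose upstream windows run into annotated exons.
Hspa1a, chr17:34972157-34972306, minus strand: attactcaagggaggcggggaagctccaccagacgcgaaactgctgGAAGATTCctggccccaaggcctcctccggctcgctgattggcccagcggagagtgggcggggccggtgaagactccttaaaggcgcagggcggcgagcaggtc
Hspa1b, chr17:34959239-34959388, minus strand: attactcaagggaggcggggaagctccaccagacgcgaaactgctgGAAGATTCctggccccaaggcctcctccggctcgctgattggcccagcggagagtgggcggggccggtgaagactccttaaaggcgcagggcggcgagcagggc
Hspa1l, chr17:34972553-34972702, plus strand: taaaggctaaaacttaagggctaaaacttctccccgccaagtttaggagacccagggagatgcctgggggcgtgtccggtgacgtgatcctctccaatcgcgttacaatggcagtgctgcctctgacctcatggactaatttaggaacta
Hspb1, chr5:135887769-135887918, plus strand: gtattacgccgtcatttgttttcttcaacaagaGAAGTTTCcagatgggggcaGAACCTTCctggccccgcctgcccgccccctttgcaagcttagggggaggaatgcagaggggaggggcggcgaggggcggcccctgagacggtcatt
Dnajb1, chr8:83608025-83608174, plus strand: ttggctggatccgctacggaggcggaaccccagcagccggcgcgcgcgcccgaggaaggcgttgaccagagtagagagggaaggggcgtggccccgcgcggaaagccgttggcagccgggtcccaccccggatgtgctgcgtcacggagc
Hspe1, chr1:55088053-55088082, plus strand: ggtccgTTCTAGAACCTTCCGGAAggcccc
Hsph1, chr5:149636351-149636380, minus strand: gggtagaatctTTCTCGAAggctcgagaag

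Over the 250 bases before each start site, Hspa1a and Hspa1b differed at 3 positions and both held GAAGATTC at -104 to -97 from the start. Hspb1 held GAANNTTC at 2 places, and Hsph1 held TTCTCGAA. Hspe1 and Hspd1, which lie head to head and overlap by 96 bases, share 1 stretch of overlapping matches, given above on the Hspe1 strand. It holds the triple form, GAANNTTCNNGAA or TTCNNGAANNTTC. No match lay in the windows of Hspa1l and Dnajb1. Only these exact forms were searched for, so an element with other letters would be missed. Among all 32851 promoter windows of that length in the RefSeq table, 6.69% held GAANNTTC, 7.17% held TTCNNGAA and 0.466% held the triple form. A match is a run of letters and was not tested as a binding site. Hspa1l, which was far higher in the Pax7-CreERT libraries, held no match, while Hspe1, which was not, held the triple form. Whether matches bear on the differences was not tested.

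Hspa1a and Hspa1b are near-identical intronless genes that encode the stress-inducible HSP70, and they stand 10120 bases apart on chromosome 17 of mm10. Their GENCODE coding sequences differed at 11 of 1926 aligned positions, gaps included. Of all 50-base windows of the Hspa1b coding sequence 82.3% occur unchanged in Hspa1a, and 68.1% of the 100-base windows do. Coding bases 1357 to 1416 are shown as an example of how few letters tell their reads apart, with capitals at the 2 differing bases.
Hspa1a: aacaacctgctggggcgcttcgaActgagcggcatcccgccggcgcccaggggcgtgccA
Hspa1b: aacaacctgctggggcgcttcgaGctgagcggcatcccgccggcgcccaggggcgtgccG

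Hspa1a (chromosome 17, 34969359 to 34972156, minus strand) stood at 1996, 1744 and 1869.85 CPM in Pax7-CreERT replicates 1 to 3, against 874, 987 and 589 CPM in control replicates 1 to 3. Hspa1b (34956429 to 34959238, minus strand) stood at 1812, 1565 and 1588 CPM in the Pax7-CreERT mice, against 697, 796 and 442 CPM in the control mice. Every Pax7-CreERT library was above every control library for both genes. Because reads can be divided between the copies, their sum is the safer quantity. It averaged 3525 ± 256 CPM in the Pax7-CreERT libraries and 1462 ± 388 CPM in the controls (SD, n = 3 each), a difference of 1.30 in log2(CPM + 1), Pax7-CreERT minus control, as are all log2 fold changes here. Without control replicate 3, the lowest library, the difference of the sum was 1.07.

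Hspa1l, an HSP70 gene best known from the male germ line, stands 546 bases from Hspa1a in the opposite orientation (34972703 to 34979228, plus strand). It stood at 65.8, 55.3 and 55.8 CPM in the Pax7-CreERT mice, against 23.7, 30.6 and 18.7 CPM in the control mice, with no overlap. Its value was a near-fixed share of Hspa1a, 3.15 ± 0.158% in the Pax7-CreERT libraries and 2.998 ± 0.249% in the controls, and the libraries overlapped in that share. The coding sequences of Hspa1l and Hspa1a were 82.7% identical, with 12.4% of the 50-base windows of Hspa1l present unchanged in Hspa1a. Whether reads of Hspa1a were assigned to Hspa1l was not tested. The kit marks strand, per the labels, but whether the counting used strand is not given in the sources used here.

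In the assigned CPM the copies did not keep the same ratio. Hspa1b was 0.908, 0.898 and 0.849 of Hspa1a in the Pax7-CreERT replicates and 0.797, 0.806 and 0.749 in the controls. The ratio was thus higher in each Pax7-CreERT library than in any control library, by a smaller margin than either gene. How the counting divided reads that match both copies is not given. Whether the transcripts themselves differ in ratio was not tested.

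Hsph1, which encodes the HSP110 nucleotide exchange factor of HSP70 (chromosome 5, 149616845 to 149636336, minus strand), was the other member with a large difference. It stood at 35.5, 45.8 and 29.9 CPM in the Pax7-CreERT mice, against 18.7, 17.2 and 13.8 CPM in the control mice. All Pax7-CreERT libraries were higher, but their order differed from that of the HSP70 genes: Hsph1 was highest in replicate 2, Hspa1a in replicate 1. The means were 37.1 ± 8.07 CPM in Pax7-CreERT mice and 16.6 ± 2.52 CPM in control mice (SD, n = 3 each), 2.24-fold apart.

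**Figure D1:**
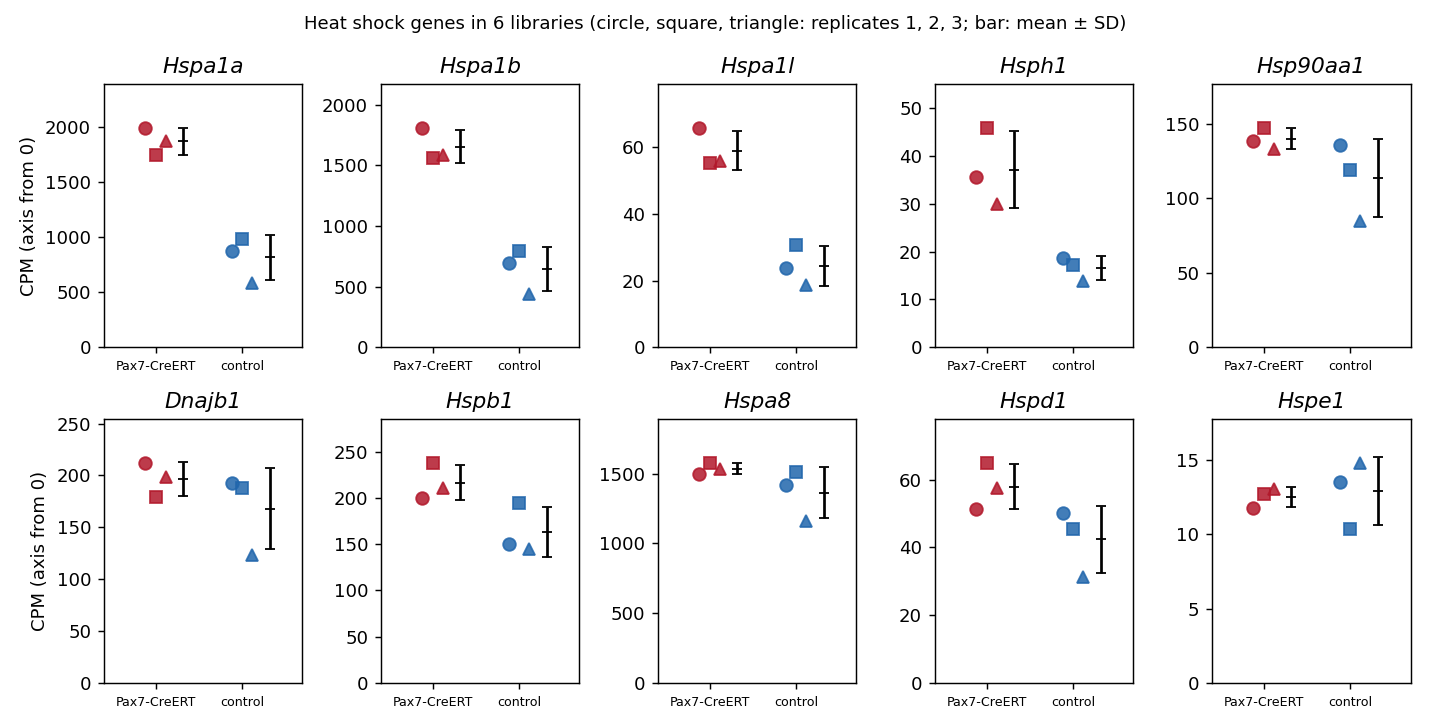
CPM of the 10 members in the 6 libraries, each panel with its own axis from 0, and the mean ± SD of 3 mice beside the points. Hspa1a, Hspa1b, Hspa1l and Hsph1 lie far apart between the genotypes, Hspb1 and Hspd1 lie apart by little, and the other 4 overlap.

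The constitutive HSP70 gene Hspa8 (HSC70, chromosome 9, 40801276 to 40805202, plus strand) stood at 1498, 1575 and 1532 CPM in the Pax7-CreERT mice, against 1417, 1512 and 1157 CPM in the control mice. Control replicate 2 lay above Pax7-CreERT replicate 1, so the groups overlapped. The sum of Hspa1a and Hspa1b was 2.54, 2.10 and 2.26 times Hspa8 in the Pax7-CreERT replicates, against 1.11, 1.18 and 0.891 times in the controls. Both values of such a ratio come from 1 library, so it does not move with the scaling of that library.

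Dnajb1, the HSP40 partner that HSF1 induces with HSP70 (chromosome 8, 83608175 to 83612653, plus strand), stood at 212, 180 and 199 CPM in the Pax7-CreERT mice, against 193, 188 and 124 CPM in the control mice. The groups overlapped, and control replicate 3 alone was far below the rest. Its log2 fold change was 0.25 with all libraries and 0.04 without control replicate 3. Hsp90aa1, the inducible cytosolic HSP90 (chromosome 12, 110691036 to 110696395, minus strand), stood at 139, 148 and 134 CPM in the Pax7-CreERT mice, against 136, 119 and 84.9 CPM in the control mice. The groups overlapped. The log2 fold change of Hsp90aa1 was 0.33, and 0.13 without control replicate 3. That of Hspa8 was 0.18, and 0.07 without the same library.

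Hspb1, the small heat shock protein HSP27 (HSP25 in mice; chromosome 5, 135887919 to 135889563, plus strand), stood at 200.3, 238 and 211 CPM in the Pax7-CreERT mice, against 150.1, 195 and 145 CPM in the control mice. The groups did not overlap, but Pax7-CreERT replicate 1 and control replicate 2 lay close together. Its log2 fold change was 0.41.

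Hspd1 and Hspe1 encode HSP60 and HSP10, the 2 components of the mitochondrial chaperonin, and they are transcribed in opposite directions. The stretch shown above lies before the start of Hspe1 and inside Hspd1 as the authors' table bounds it, with a second RefSeq start of Hspd1 on its other side. Hspd1 (chromosome 1, 55077833 to 55088243, minus strand) stood at 51.4, 64.9 and 57.6 CPM in the Pax7-CreERT mice, against 50.1, 45.5 and 31.3 CPM in the control mice. The groups just failed to overlap, Pax7-CreERT replicate 1 and control replicate 1 being 51.4 and 50.1 CPM, and the log2 fold change was 0.47, or 0.27 without control replicate 3. Hspe1 (55088148 to 55091317, plus strand) stood at 11.8, 12.7 and 13.03 CPM in the Pax7-CreERT mice, against 13.5, 10.4 and 14.8 CPM in the control mice. It was the 1 member with a lower mean in the Pax7-CreERT mice, by 0.03 on the log2 scale, and the 1 member highest in control replicate 3. The sign of Hspe1 changed without Pax7-CreERT replicate 1, control replicate 1 or control replicate 3. The quotient of Hspd1 over Hspe1 was 4.37, 5.10 and 4.42 in the Pax7-CreERT replicates and 3.70, 4.39 and 2.12 in the controls, with overlap.

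Of the 10 members, 9 had higher means in the Pax7-CreERT libraries, where 68% of the 14763 tested genes did. For 6 members all Pax7-CreERT libraries were above all controls, as for 8.69% of the tested genes, and for 0 all were below, as for 2.28%. Also, for 4 members the log2 fold change was at least 1, as for 0.257% of the tested genes. These shares are set beside the members for scale only, since the same contrast had been seen when the members were chosen. With TMM factors, which scale libraries on their shared genes, 4 members were above all controls, against 4.95% of the genes tested. The median log2 fold change was 0.44 over the members and 0.09 over all tested genes. Among all 14763 genes limma called 1, or 0.00677%, at an adjusted p under 0.05. It was the zinc finger gene Zfp697, which was lower, and is no member.

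**Figure D2:**
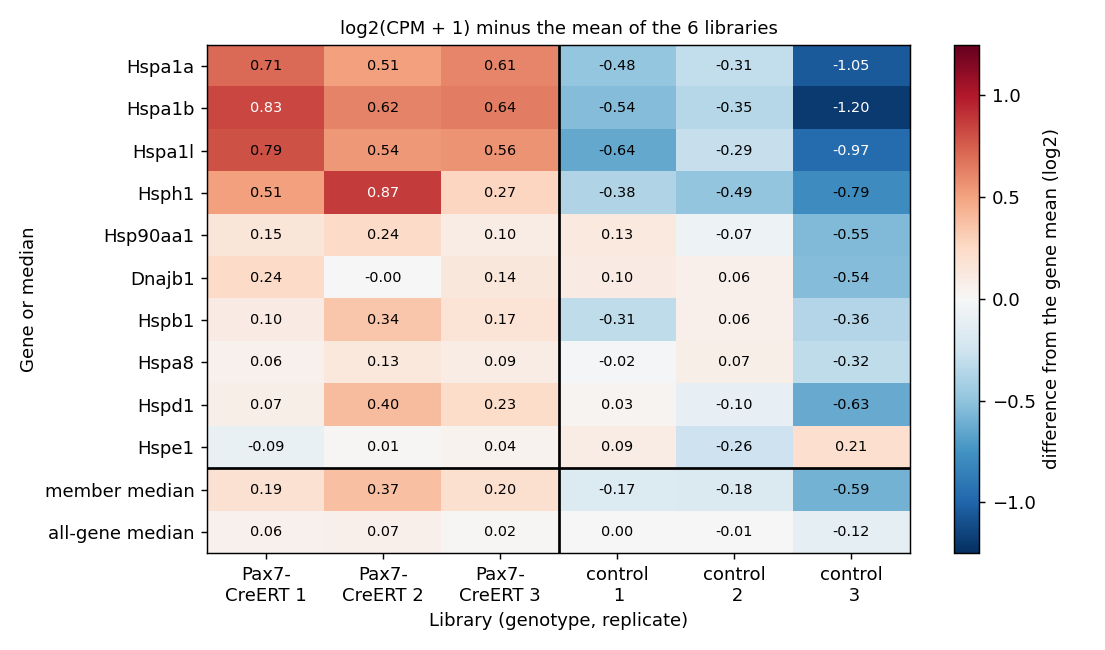
log2(CPM + 1) of each member minus its mean over the 6 libraries, with the median of the members and of all tested genes in the last rows. Control replicate 3 has the lowest value for 9 of 10 members, and its member median is -0.59 against an all-gene median of -0.12.

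Control replicate 3 was the lowest library for 9 of the 10 members and for 39.8% of all tested genes. Without it the log2 fold change was 1.006 for Hspa1a, 1.15 for Hspa1b, 1.10 for Hspa1l and 0.98 for Hsph1. With haemoglobin genes left out and CPM rescaled, a setting added after seeing the data, the sum of Hspa1a and Hspa1b had a log2 fold change of 1.25. In that setting 6 members were still above all controls, as were 6.91% of the genes tested. The CV of Hspa1a was 6.75% over the 3 Pax7-CreERT mice and 25.1% over the 3 controls, but 8.53% over the controls without replicate 3. For Hspa8 the CV was 2.54% in the Pax7-CreERT mice and 13.5% in the controls, or 4.59% without that library. For Hsph1 it was 21.7% in the Pax7-CreERT mice and 15.2% in the controls, or 5.81% without it. Each control CV without replicate 3 rests on replicates 1 and 2 only. The control CV fell without replicate 3 for every member but Hspb1 (16.7% with it, 18.3% without) and Hspe1 (17.7% and 18.7%). For Hspa1l it was 24.4% with that library and 17.8% without.

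**Figure D3:**
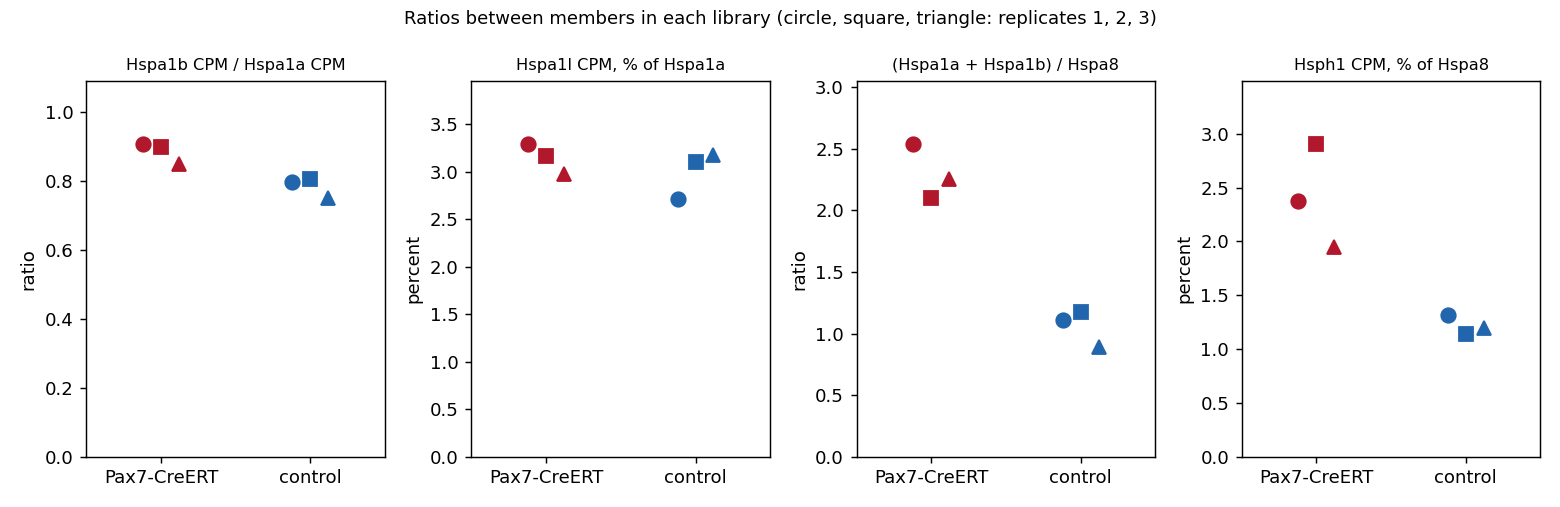
Ratios of members within each library, which carry no library scaling, with axes from 0. Hspa1b over Hspa1a, the summed pair over Hspa8 and Hsph1 as a share of Hspa8 do not overlap between the genotypes, while Hspa1l as a share of Hspa1a does. How the counting divided reads between Hspa1a and Hspa1b is not given.

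To compare levels between genes, CPM were divided by the length in kilobases of the principal GENCODE transcript. For Hspa1a and Hspa1b these levels depend on how reads matching both copies were counted, which is not given. In the Pax7-CreERT libraries Hspa8 stood at 641 ± 16.3 CPM per kb, Hspa1a at 630.2 ± 42.5 and Hspa1b at 590.4 ± 48.7 (SD, n = 3), and the ranges of neighbours in this order overlapped. In the controls the same scale gave 569 ± 76.9 CPM per kb for Hspa8, 275 ± 69.0 for Hspa1a and 230.05 ± 65.2 for Hspa1b, with overlap between these copies and Hspa8 above both. Hspb1 followed at 239.5 ± 21.3 CPM per kb in the Pax7-CreERT libraries and 181 ± 30.2 in the controls, where its range overlapped that of Hspa1b. Dnajb1 and Hsp90aa1 came next, at 65.7 ± 5.45 and 42.7 ± 2.16 CPM per kb in the Pax7-CreERT libraries and 56.1 ± 12.9 and 34.6 ± 7.98 in the controls. At the low end of the Pax7-CreERT order stood Hspd1 (23.9 ± 2.79 CPM per kb), Hspa1l (23.8 ± 2.41), Hspe1 (16.2 ± 0.845) and Hsph1 (9.76 ± 2.12), the first 2 within each other's spread. In the controls Hspd1 (17.5 ± 4.05 CPM per kb) and Hspe1 (16.7 ± 2.95) were within each other's spread, and Hspa1l (9.85 ± 2.40) and Hsph1 (4.36 ± 0.662) lay below both. Together the 10 members took 0.602%, 0.563% and 0.569% of all CPM in the Pax7-CreERT mice, against 0.357%, 0.390% and 0.262% in the control mice.

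Related genes outside the members were read in lists, with limma on log2(CPM + 1) and adjustment over all tested genes. None of the genes in the 10 lists passed, in either direction; for 9 lists the lowest limma adjusted p lay between 0.896 and 0.914, and it was 0.891 for the co-chaperones. At an unadjusted p under 0.05 limma called 1 gene higher, Dnajb4, and 1 lower, Fkbp5, both co-chaperone genes, and 0 in the other lists, where 4.58% of all tested genes were called higher and 0.942% lower. Of the HSF genes, 4 of 5 were tested, and Hsf1 itself measured 18.1 ± 0.463 CPM in the Pax7-CreERT libraries and 18.1 ± 3.96 CPM in the controls (log2 fold change 0.02, limma adjusted p = 0.988). Hsf2, a related factor that can pair with HSF1, measured 8.40 ± 1.96 CPM in the Pax7-CreERT libraries and 6.93 ± 1.85 CPM in the controls (0.25, limma adjusted p = 0.914). Next by size of difference were Hsf5 (0.17) and Hsbp1 (0.09), which encodes a small protein that binds HSF1. Without control replicate 3 the log2 fold change was 0.04 for Hsf1, 0.08 for Hsf2, -0.25 for Hsf5 and 0.14 for Hsbp1. HSF1 is controlled mainly as a protein, which these data did not measure.

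The other HSP70 family genes, 10 of 10 tested, had a median log2 fold change of 0.09, the same as all genes. Hspa5, the endoplasmic reticulum HSP70 (BiP), measured 683 ± 88.7 CPM in the Pax7-CreERT libraries and 624 ± 114 CPM in the controls (0.14, limma adjusted p = 0.937). Hspa4, another HSP110-type gene, measured 75.3 ± 10.1 CPM in the Pax7-CreERT libraries and 66.4 ± 6.32 CPM in the controls (0.17, limma adjusted p = 0.899). The largest differences were those of Hspa14 (log2 fold change 0.19, a ribosome-associated HSP70) and Hspa12a (0.19), both with overlapping groups. The median of these genes was 0.035 without control replicate 3, and Hspa5 was at -0.00066, Hspa4 at 0.13, Hspa14 at 0.032 and Hspa12a at 0.067. The summed Hspa1a and Hspa1b were 5.18, 5.70 and 4.72 times Hspa5 in the Pax7-CreERT replicates, against 2.14, 2.84 and 2.03 times in the controls.

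All 3 other HSP90 genes had higher means, led by Hsp90ab1, the constitutive cytosolic HSP90, at 537 ± 41.1 CPM in the Pax7-CreERT libraries and 425 ± 111 CPM in the controls (0.37, limma adjusted p = 0.896). Hsp90b1 of the endoplasmic reticulum (0.24) and Trap1 of mitochondria (0.096) followed. These values were 0.13 for Hsp90ab1, 0.11 for Hsp90b1 and 0.02 for Trap1 without control replicate 3. Of 9 other small HSP genes 6 were tested, 5 with higher means and 1 with a lower mean (median log2 fold change 0.27). Cryab, the alpha B-crystallin of muscle and lens, measured 28.0 ± 2.01 CPM in the Pax7-CreERT libraries and 23.4 ± 1.73 CPM in the controls (0.25, limma adjusted p = 0.896), with no overlap between the groups. Hspb7, a small HSP of heart and muscle, measured 14.4 ± 5.27 CPM in the Pax7-CreERT libraries and 10.2 ± 4.29 CPM in the controls (0.47, limma adjusted p = 0.896). Hspb2 had a log2 fold change of 0.43 and Hspb9, near the detection floor at 0.745 ± 0.408 CPM in the Pax7-CreERT libraries and 1.47 ± 0.757 CPM in the controls, one of -0.48. Hspb8, which works with Bag3 in clearing damaged muscle proteins, measured 42.1 ± 15.4 CPM in the Pax7-CreERT libraries and 42.3 ± 16.2 CPM in the controls. Without control replicate 3 the log2 fold change was 0.76 for Hspb7, 0.62 for Hspb2, 0.27 for Cryab, 0.29 for Hspb8 and -0.62 for Hspb9.

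Among 33 DNAJ, BAG and other co-chaperone genes, 22 had higher and 11 lower means, and the median of their log2 fold changes was 0.07. Bag3, an HSF1 target in other cells, measured 75.2 ± 13.4 CPM in the Pax7-CreERT libraries and 67.4 ± 19.6 CPM in the controls (0.18, limma adjusted p = 0.925). Fkbp5, an HSP90 co-chaperone induced by glucocorticoids, had the largest difference of this list and in the other direction, 41.6 ± 8.01 CPM in the Pax7-CreERT libraries against 71.0 ± 21.5 CPM in the controls (-0.73, limma adjusted p = 0.891), with no overlap between the groups. The HSP70 cofactor gene Bag6 (0.396) and the HSP40 gene Dnajb4 (0.35) had the largest positive differences. The 8 tested genes of the cytosolic chaperonin CCT, which folds actin and tubulin, had a median of 0.12, led by Tcp1 (0.22), Cct8 (0.17) and Cct2 (0.15). With control replicate 3 left out the median was 0.015 for the co-chaperones, 19 of them higher and 14 lower, and 0.053 for CCT. Bag3 then turned to -0.03, and Bag6 stood at 0.18, Dnajb4 at 0.22, Fkbp5 at -0.52, Tcp1 at 0.09, Cct8 at 0.04 and Cct2 at 0.07.

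The endoplasmic reticulum stress list had 14 higher and 6 lower means of 20 (median log2 fold change 0.08), led by Pdia3, a disulfide isomerase, at 37.9 ± 7.10 CPM in the Pax7-CreERT libraries and 28.5 ± 8.88 CPM in the controls (0.43, limma adjusted p = 0.896), before Pdia6 (0.28) and Hsp90b1 (0.24). Of 12 genes of mitochondrial protein quality control, 10 had higher means (median 0.15), among them the inner membrane protease gene Afg3l2 with 15.3 ± 2.13 CPM in the Pax7-CreERT libraries and 10.6 ± 4.77 CPM in the controls (0.56, limma adjusted p = 0.896). Spg7, its partner subunit, had a log2 fold change of 0.24 and the matrix protease gene Clpp one of -0.22. Of 12 other stress-inducible genes 7 had higher means (median 0.04). Hmox1, the haem-degrading enzyme, measured 34.5 ± 11.5 CPM in the Pax7-CreERT libraries and 54.8 ± 44.2 CPM in the controls (-0.43, limma adjusted p = 0.916), Gadd45a had a log2 fold change of -0.42 and the osmolyte transporter gene Slc5a3 one of 0.37. Of the controls, replicate 3 alone held Hmox1 high, at 106 CPM against 27.9 and 30.6 CPM in replicates 1 and 2. Without it Hmox1 turned to 0.18, Gadd45a stood at -0.13 and Slc5a3 at 0.15. The medians were then 0.015 for the endoplasmic reticulum list, with Pdia3 at 0.17, Pdia6 at 0.07 and Hsp90b1 at 0.11, and 0.037 for the mitochondrial list, with Afg3l2 at 0.37, Spg7 at 0.32 and Clpp at -0.31. The other stress genes had a median of 0.02, with 6 higher and 6 lower.

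**Figure D4:**
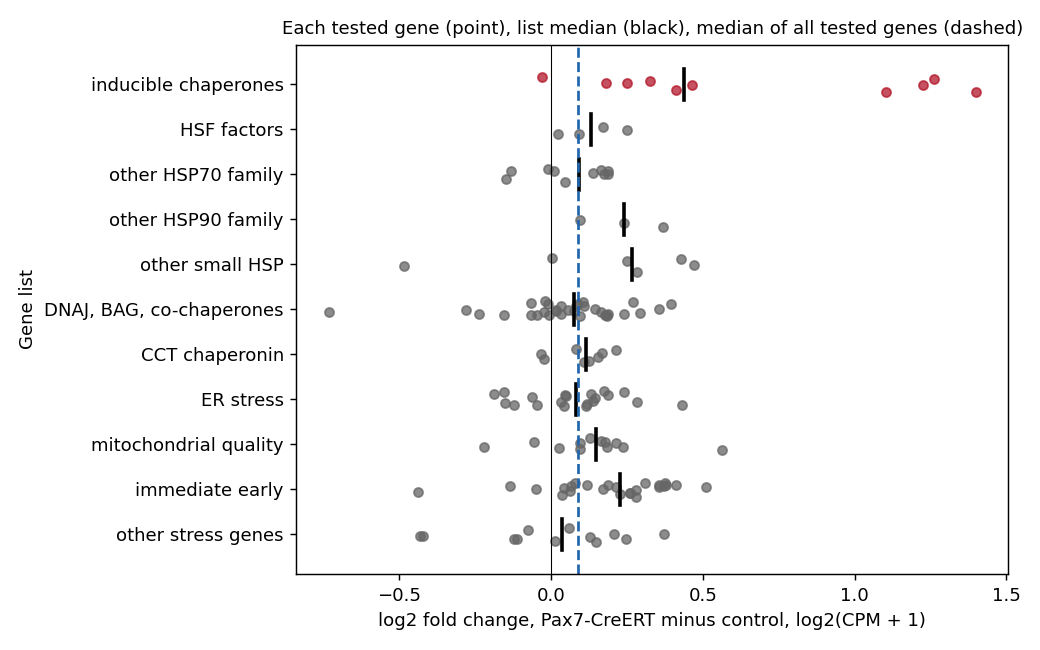
log2 fold change of each tested gene, Pax7-CreERT minus control, for the members (top) and 10 lists of related genes, with list medians as black bars and the median of all tested genes, 0.09, dashed. The points above 1 are Hspa1a, Hspa1b, Hspa1l and Hsph1.

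Immediate early genes, which are known to respond rapidly to tissue dissociation, had higher means for 22 of 25 (median log2 fold change 0.23, none past limma's threshold). Their summed level ranged from 19068 to 25089 CPM in the Pax7-CreERT libraries and from 15348 to 22027 CPM in the controls, with overlap. Atf3, a stress-induced factor of this list, measured 627 ± 144 CPM in the Pax7-CreERT libraries and 462 ± 187 CPM in the controls (0.51, limma adjusted p = 0.896). Fosl2 had a log2 fold change of 0.41 and Ier3 one of -0.44. Without control replicate 3 the list had 13 higher and 12 lower means with a median of 0.0058, and Atf3 stood at 0.12, Fosl2 at 0.05 and Ier3 at -0.54.

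All 16 myofibre markers had higher means (median log2 fold change 0.85), where 68% of all tested genes did, and none was at 0 in every library. Limma called 0 of them at an adjusted p under 0.05. At an unadjusted p under 0.05 it called 13 higher, where 4.58% of all tested genes were called higher. For 10 markers all Pax7-CreERT libraries were above all controls, as for 8.69% of the tested genes. The summed level of the 16 ranged from 2135 to 3059 CPM in the Pax7-CreERT libraries and from 1025 to 1752 CPM in the controls, without overlap. All 16 means were still higher without control replicate 3, with a median of 0.58. Other marker lists then had medians of similar size: B cells 0.77, T and NK cells 0.72 (2 genes), fibro-adipogenic progenitors 0.63 and macrophages 0.51. Those of endothelial cells (-0.04), neutrophils (-0.20), erythroid cells (-0.24) and adipocytes (-0.32) were negative. With all libraries the medians were -0.23 for B cells, 0.16 for T and NK cells, 0.38 for fibro-adipogenic progenitors and 0.04 for macrophages. The B cell sum was 75.9 CPM in Pax7-CreERT replicate 3, against 13.2 and 11.5 CPM in replicates 1 and 2. The fibro-adipogenic progenitor sum was 5462 CPM in Pax7-CreERT replicate 1, against 3362 and 2904 CPM in replicates 2 and 3. Mature fibres are multinucleated, yet myofibre transcripts were present in libraries labelled as mononuclear cells. Which cells they came from was not tested. In a bulk sample, fewer cells of a type and less RNA per cell cannot be told apart.

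Of 13 sums, made over 12 cell type marker lists and the immediate early list, 2 put the libraries in the same order within both groups as the summed Hspa1a and Hspa1b did: the myofibre and the immediate early sums. In that order Pax7-CreERT replicate 1 is first and 2 last, and control replicate 2 is first and 3 last. The same order held for 3.14% of the tested genes. The 9 erythroid markers ran the other way in all 9 means, with sums from 18715 to 49094 CPM in the Pax7-CreERT libraries and from 26155 to 130188 CPM in the controls. Without control replicate 3, 8 of them were lower, and the median of their log2 fold changes was -0.24 in place of -0.84. The part of each of these in the HSP70 difference was not tested.

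Sums of the remaining cell type markers overlapped between the genotypes for macrophages (635 to 908 CPM in the Pax7-CreERT libraries and 481 to 1279 CPM in the controls) and likewise for neutrophils, T and NK cells, B cells, Schwann cells and adipocytes. For macrophages the overlap rested on control replicate 3, since controls 1 and 2 were at 481 and 518 CPM, and the same held for T and NK cells, with 3.01 and 2.43 CPM in controls 1 and 2 and 4.34 to 10.2 CPM in the Pax7-CreERT libraries. For endothelial cells they ranged from 6410 to 7172 CPM in the Pax7-CreERT libraries and from 6070 to 8343 CPM in the controls. For fibro-adipogenic progenitors the ranges were 2904 to 5462 CPM in the Pax7-CreERT libraries and 2989 to 4350.31 CPM in the controls, also with overlap. They did not overlap for satellite cells (553 to 641 CPM in the Pax7-CreERT libraries and 493 to 536 CPM in the controls) or for pericytes and smooth muscle (9469 to 11888 CPM in the Pax7-CreERT libraries and 7412 to 9450.47 CPM in the controls). The part of these 2 in the result was not tested either. The satellite cell sum did not stand for its genes one by one. Among the 9 tested, means were higher for 8 and lower for 1, and the groups lay apart for 1. Their median log2 fold change was 0.07, against 0.09 over all tested genes, and Pax7 itself was at 0.07, with overlap. Leaving out control replicate 3 gave 5 higher and 4 lower, with a median of 0.09 against 0.04 over all tested genes. No listed marker in the table was at 0 in every library.

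**Figure D5:**
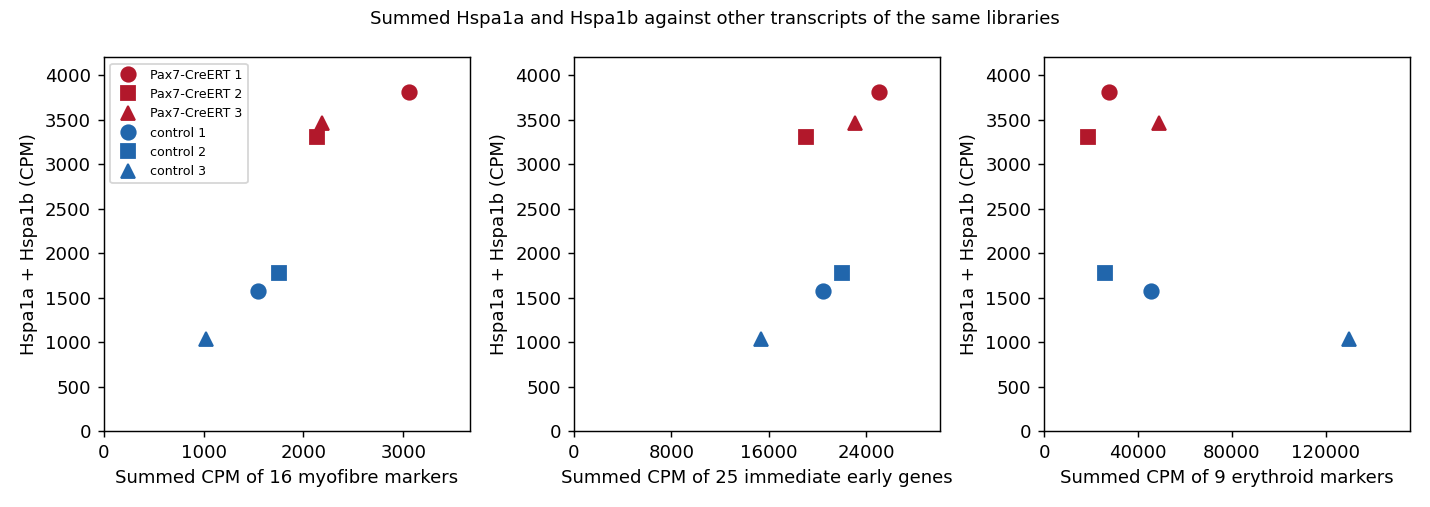
Summed Hspa1a and Hspa1b (vertical) against the summed CPM of 16 myofibre markers, 25 immediate early genes and 9 erythroid markers (horizontal) in each of the 6 libraries. Control replicate 3 is lowest in the pair, the myofibre sum and the immediate early sum and highest in the erythroid sum.

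The genes most like the summed Hspa1a and Hspa1b over the 6 libraries were sought among 9417 tested genes outside the members with a mean of at least 10 CPM, by the root mean square difference of centred log2 values. The 5 nearest were Neb (0.243), Cdh6 (0.255), Klhl41 (0.289), Ttn (0.2901) and Ccn1 (0.298). Neb, Klhl41 and Ttn encode the sarcomere proteins nebulin, a kelch protein that stabilises nebulin, and titin; Cdh6 is a cadherin gene and Ccn1 a matricellular gene induced by serum and stretch. Neb stood at 96.7, 69.0 and 79.0 CPM in the Pax7-CreERT mice, against 49.98, 58.6 and 28.9 CPM in the control mice. The log2 fold change of Neb was 0.86, or 0.57 without control replicate 3. On the same measure Hsph1 lay at 0.2696 from the pair, and Hspd1, Hspb1, Hsp90aa1, Dnajb1, Hspa8 and Hspe1 lay farther, from 0.458 to 0.767. Of the members outside the HSP70 cluster, only Hsph1 lay within the range of these 5 genes. The 5 were picked as the nearest of 9417 genes and the members were not, so the comparison is a description only. The share of the 9417 genes nearer than each member was not computed.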

How the data were processed

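RNA of mononuclear muscle cells was sequenced from 3 Pax7-CreERT and 3 control mice, with a strand-specific kit per the labels. Each deposited value is a CPM, a gene's share of 1000000 assigned reads, plus a constant of 0.0001, as the column sums of the authors' 17030 genes show. The submitters' processing notes name Partek, DESeq2 and mm10 without roles; the aligner and counting rule are not given in the sources used here. Gene ends were reduced by 1, since 11050 of 17013 matched ends then equal those of RefSeq. Depth was estimated from the smallest step between low CPM values. Between 92.9% and 93.9% of values up to 20 reads were whole within 0.05 read, so whole reads were not recovered and no count test was run. At 1 CPM a library held 4.05 to 13.3 reads, and counting error limits the faint genes.

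The genotypes were contrasted by limma (3.58.1, R 4.3.3) with a mean-variance trend on log2(CPM + 1). The 14763 genes tested reached 1 CPM in 3 or more libraries, with Benjamini-Hochberg adjustment and a threshold of 0.05. P-values set the difference between the genotypes against the spread between mice, moderated over all tested genes. The members and lists were chosen with earlier results of these data known. Named genes are the members, the 3 largest differences per related list, the 5 genes nearest to the HSP70 pair, and, chosen after their values were seen, Hsf1, Hspa5, Cryab, Hspb8 and Bag3. Alternatives were other constants, no filter, TMM factors (30% and 5% trimmed, without weights), quantile normalization, array weights, CPM without haemoglobin and leaving out libraries. Replicate numbers follow the record order and pair no mice.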

Additional observations from a re-analysis of the deposited data

How the results depend on the processing

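No paired analysis was possible because the labels carry no replicate numbers. The median log2 fold change over the members kept its direction under all alternatives run. It moved by less than its SD between mice within genotypes, 0.18, and was 0.30 to 0.54 without 1 library each. The sum of Hspa1a and Hspa1b stayed positive and moved by less than its own SD, 0.30. Both SDs include control replicate 3, so they are no independent measure for the omission of that library. The count of genes past the threshold was 1 with all libraries, 2 with no filter on low values (Zfp433 and Zfp697), 2 with Pax7-CreERT library 1 and control library 3 both left out (Prom1 and Zfp697), and 0 to 1 without 1 library each, the 1 being without control replicate 3; at an unadjusted p under 0.05 limma gave 443 to 1022 genes in those single omissions. Hspe1 had a log2 fold change of -0.03; omitting a single library gave -0.167 (control replicate 2) to 0.0700 (control replicate 3), and also 0.01 for each of Pax7-CreERT replicate 1 and control replicate 1. With both Pax7-CreERT library 1 and control library 3 left out, Hspe1 was at 0.11 and Dnajb1 at -0.0108. The cause was not tested. The share of higher means among all genes was 68.0% as deposited, 51.0% with TMM factors, 51.5% with quantile normalization and 58.4% without haemoglobin genes, and the median of all genes was 0.09, 0.004, 0.008 and 0.04. At an unadjusted p under 0.05 there were 676 higher and 139 lower genes as deposited and 373 higher and 310 lower with TMM factors. Depth limits Hspe1 most, the member with the fewest reads.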
